A study of Homo sapiens with 26 samples.

Results

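Ribo-Zero Plus depletion was examined in 3 modified forms in K562 ribosome profiling libraries: with added oligos, with formaldehyde and with both. These libraries are 3 of the 26 libraries of the series, were picked by their sample labels and not by any measured value, and are compared with 1 library made with Ribo-Zero Plus alone. All 4 come from K562, a chronic myeloid leukaemia line with erythroid features. They share lysis with cycloheximide, digestion with RNase I to monosomes, and fragments labelled 20 to 34 nt. Both undepleted K562 libraries of the same count table had the same treatment without rRNA removal. They set the expression levels used below. The labels do not say what the oligos are, at which step the oligos or formaldehyde entered, or how many cultures were used. Each Ribo-Zero Plus condition is 1 library, so no difference between 2 of them has a replicate error, and a p-value is given only where all 4 entered 1 model.

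Ribosome profiling sequences the short mRNA pieces that ribosomes shield from nuclease, and most of the RNA recovered this way is fragments of rRNA. Ribo-Zero Plus removes rRNA enzymatically: DNA probes pair with rRNA and RNase H cuts the paired RNA. How much of the transcriptome a library then shows depends on its read number and on its complexity, that is, on how many different footprints entered it. In a complex library read to a modest depth, transcripts of low expression mostly come up with a single read.

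The 4 Ribo-Zero Plus libraries differed widely in total. Ribo-Zero Plus alone held 1840190 counts on the coding sequences of 19478 transcripts. The library with oligos held 184722, that with formaldehyde 116742 and that with both 165153. The undepleted libraries held 1135460 and 1031889 counts, and the 8 libraries of the table made without Ribo-Zero Plus ranged from 1031889 to 5795774. K562 identity was visible in all 4: 13, 12, 11 and 12 of 13 erythroid markers had a count in the libraries with neither addition, oligos, formaldehyde and both, with summed levels of 12600, 11100, 7940 and 5240 CPM (counts of a transcript scaled to 1000000 per library), against 13100 and 12700 undepleted. Of 10 markers of HEK293-type, lymphoid or myeloid cells, 4, 2, 2 and 3 had a count, with summed levels from 51.4 to 175 CPM. PAX2, PAX8, CDH2, CD14 and MS4A1 were at 0 in all 4.

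Fewer transcripts were seen in the libraries with oligos or formaldehyde, at full depth and also at equal totals. At full depth 10603 transcripts had at least 1 count with Ribo-Zero Plus alone, 6847 with oligos, 5905 with formaldehyde and 6583 with both. Every library was then brought to the total of the smallest one, 116742 counts, by calculating exactly how many transcripts a draw of that size would show. At this common total 8362 transcripts were detected with Ribo-Zero Plus alone, 6612 with oligos, 5905 with formaldehyde and 6405 with both. The other 8 libraries of the table fell between 8640 and 8676, and libraries of 1 group differed from each other by 3 to 16 transcripts. Detection thus fell by 1750 transcripts from plain Ribo-Zero Plus to the library with oligos and by more to the other two. Plain Ribo-Zero Plus itself lay below the lowest of the other 8 by more than any of the 4 replicate pairs differed. In other tables of the series, whose libraries also differ in kit or cell line, 8 HEK293T libraries of 120019 to 421521 counts gave 9677 to 9815 transcripts at the same total, and 3 K562 libraries of 190243 to 441249 counts gave 8519 to 8602. The part of library yield in the difference was not tested.

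**Figure D1:**
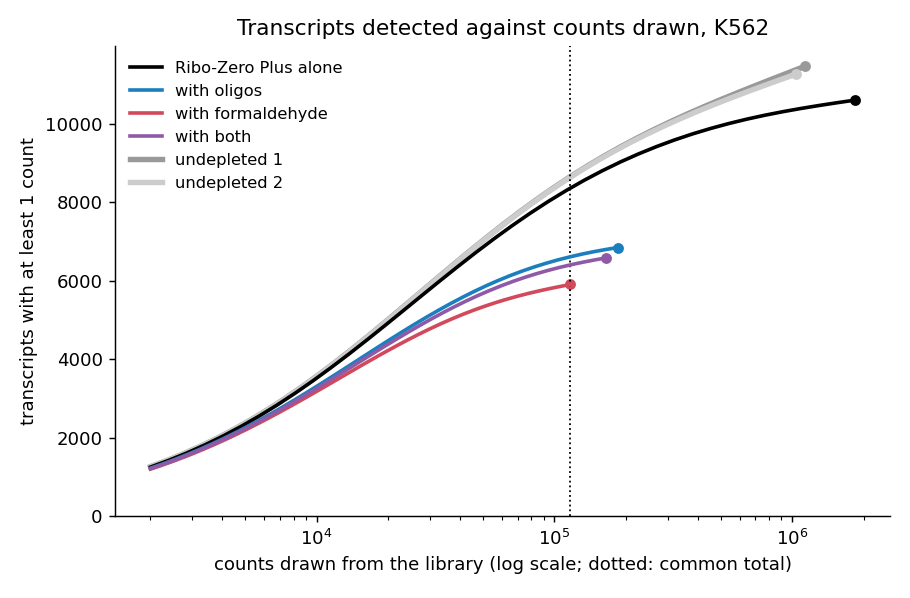
Transcripts with at least 1 count (vertical axis) against the number of counts drawn from each K562 library (horizontal axis, log scale), for the 4 Ribo-Zero Plus and both undepleted libraries; a point marks each full library and the dotted line the common total of 116742. The curves with oligos, formaldehyde or both bend early and end at 6847, 5905 and 6583 transcripts, below the curves of plain Ribo-Zero Plus and the undepleted libraries at the same number of counts.

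The shortfall was expressed as the number of counts of plain Ribo-Zero Plus that show the same number of transcripts. The 184722 counts with oligos showed as many transcripts as 49746 counts of plain Ribo-Zero Plus, or 26.9% of their number. The 116742 counts with formaldehyde matched 31575 counts, or 27.0%, and the 165153 with both matched 43658, or 26.4%. So each of the 3 libraries needed about the same excess, 3.71, 3.70 and 3.78 counts for each count of the plain library. Against the summed undepleted libraries the shares were 24.9%, 25.6% and 24.6%. Plain Ribo-Zero Plus, at its full 1840190 counts, reached 27.3% against the undepleted libraries. At the common total the shares against the undepleted libraries were 84.8%, 35.3%, 25.6% and 32.1% with neither addition, oligos, formaldehyde and both. Against plain Ribo-Zero Plus, the 3 libraries with additions reached 61.1%, 48.4% and 56.8% when drawn down to 50000 counts. The share thus depends on how far a library is read. Pooling the 3 gave 466617 counts and 8775 transcripts, the yield of 155646 counts of the plain library (33.4%).

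The distribution of counts changed shape as well. At the common total 1525 transcripts had exactly 1 count with Ribo-Zero Plus alone, 18.2% of those detected. The library with oligos had 630 such transcripts (9.52%), that with formaldehyde 489 (8.28%) and that with both 591 (9.22%). The other 8 libraries of the table had 1671 to 1699 (19.3% to 19.6%), so single counts were scarcer in all 3 libraries with additions than in any of the 9 others. At full depth the fall from 1 count to 2 and 3 was slight with oligos and clearer with formaldehyde and with both. With oligos 410 transcripts had 1 count, 398 had 2, 370 had 3, 425 had 4 and 361 had 5. With formaldehyde these numbers were 489, 373, 395, 417 and 391, and with both 447, 379, 399, 428 and 376. Plain Ribo-Zero Plus, which was read deeper, had 378, 217, 210, 171 and 200. At full depth its share of single counts was the lowest, 3.57%, against 5.99%, 8.28% and 6.79% with oligos, formaldehyde and both. In the other 8 libraries that share was 7.85% to 9.85%. The label of the ligated linker begins with a run of random bases, and whether copies of 1 molecule were collapsed with it is not given in the sources used here.

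**Figure D2:**
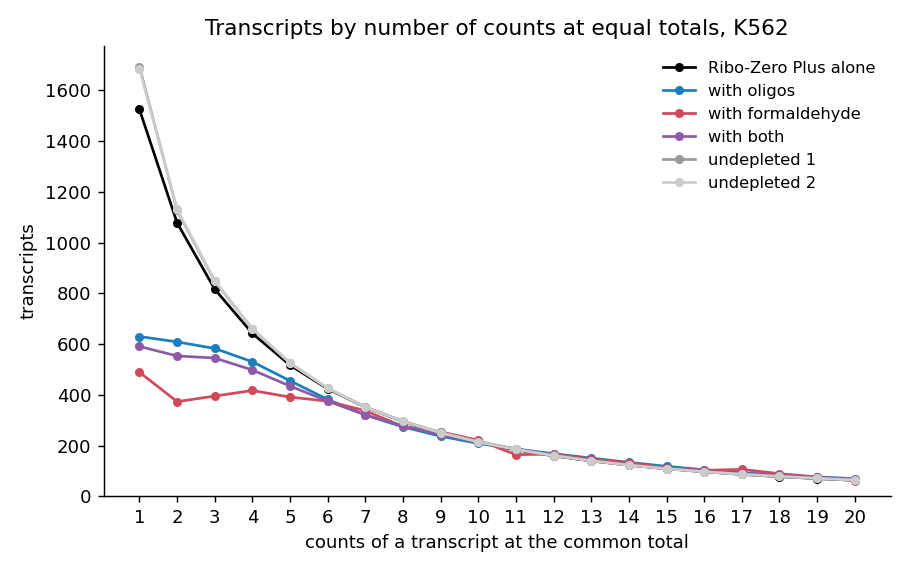
Number of transcripts (vertical axis) having each number of counts from 1 to 20 (horizontal axis) when each K562 library is brought to 116742 counts. Plain Ribo-Zero Plus and the undepleted libraries start at 1525 to 1694 transcripts with 1 count and fall steeply, while the libraries with oligos, formaldehyde or both start at 630, 489 and 591 and stay nearly level over the first few counts.

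The 3 libraries with additions were somewhat less even. The inverse Simpson index, the number of equally abundant transcripts that would give the same chance that 2 draws hit 1 transcript, was 833 with Ribo-Zero Plus alone, 721 with oligos, 654 with formaldehyde and 673 with both. It ranged from 820.4 to 844.4 in the other 8 libraries, which leaves plain Ribo-Zero Plus inside their range and the 3 others below it. The 10 leading transcripts took 6.11%, 7.21%, 7.78% and 7.49% of counts in the same order. EEF1A1, the elongation factor that brings aminoacyl-tRNA to the ribosome, led every library of the table except that with oligos, at 17600, 15700, 19200 and 18300 CPM in the 4 Ribo-Zero Plus libraries. KCNH8, a voltage-gated potassium channel gene, led the library with oligos.

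Dropout, a count of 0 at the common total, was concentrated in transcripts of low and middle expression. Transcripts were put into classes by their mean CPM in both undepleted libraries, so that no Ribo-Zero Plus library set its own classes. Of 3005 transcripts at 30 to 100 CPM, for which the common total should hold 6.58 counts on average, 1.41% had no count with Ribo-Zero Plus alone. The library with oligos missed 14.4%, that with formaldehyde 23.6% and that with both 17.7%, against 0.567% and 0.566% in the undepleted libraries. Of 2799 transcripts at 10 to 30 CPM, 18.8% were missed with Ribo-Zero Plus alone, 48.3% with oligos, 57.2% with formaldehyde and 51.4% with both. Of 1358 at 100 to 300 CPM, 0.717%, 2.21% and 0.958% were missed in the 3 libraries with additions. Above 300 CPM all 621 transcripts had counts in all 4 libraries. Formaldehyde alone gave the highest dropout and oligos alone the lowest of the 3 in each class from 3 to 300 CPM.

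The counts that a class received as a whole hardly moved. Transcripts at 30 to 100 CPM took 17.0% of all counts with Ribo-Zero Plus alone, 18.3% with oligos, 18.1% with formaldehyde and 17.9% with both. Transcripts over 1000 CPM took 28.9%, 28.3%, 29.4% and 29%. Because fewer transcripts shared these counts, each detected one held more. At 3 to 10 CPM a detected transcript averaged 1.72 counts with Ribo-Zero Plus alone, 3.49 with oligos, 4.07 with formaldehyde and 3.61 with both. At 10 to 30 CPM the averages were 2.68, 4.32, 5.28 and 4.59 counts. At 100 to 300 CPM, where nearly all transcripts were seen, they were 19.4, 18.8, 18.9 and 19.

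**Figure D3:**
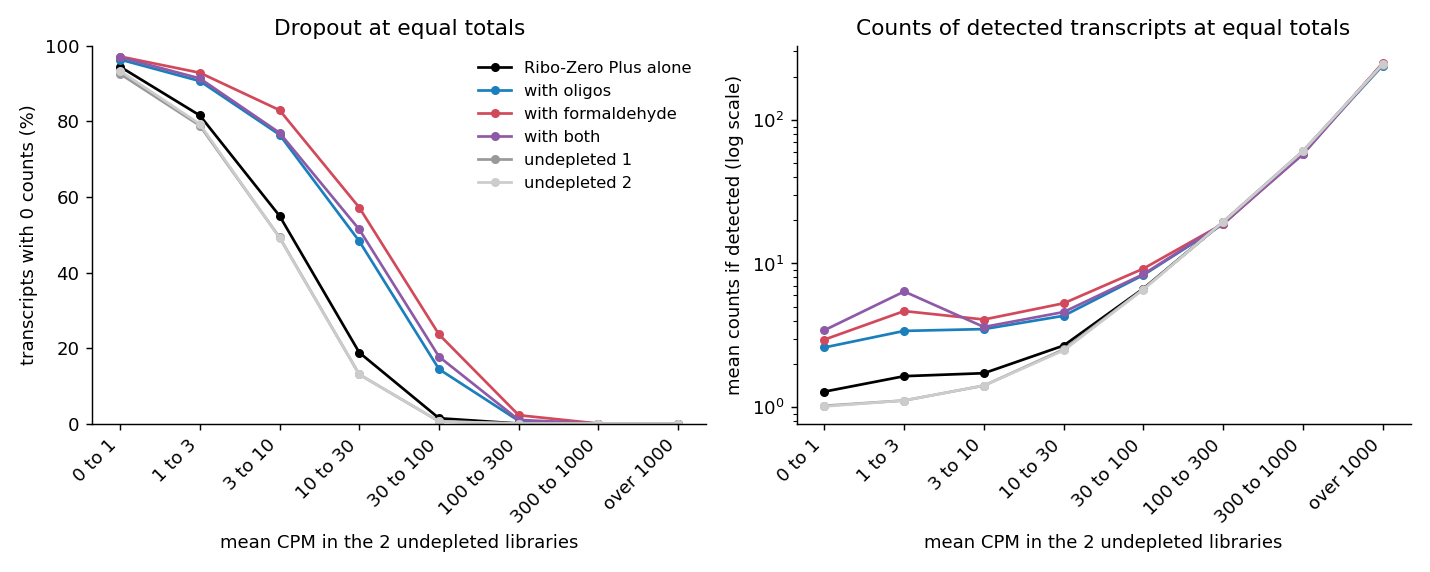
Left, share of transcripts with 0 counts (percent), and right, mean counts of the detected transcripts (log scale), in 8 classes of mean CPM in the undepleted libraries, with each library at 116742 counts. At 30 to 100 CPM dropout was 14.4% with oligos, 23.6% with formaldehyde and 17.7% with both against 1.41% with neither, and below 100 CPM the detected transcripts held more counts.

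Scatter between transcripts of like expression also grew, and not only among the rare ones. It was measured as the squared deviation of each count from the value expected from the undepleted level, divided by that value and averaged over transcripts, which is close to 1 where only counting varies. The 5 most deviant transcripts of a class were left out. At 100 to 300 CPM the index was 0.962 and 0.896 in the undepleted libraries, which had set the expected values, and 1.37 with Ribo-Zero Plus alone. It was 3.71 with oligos, 5.09 with formaldehyde and 4.73 with both. Over 1000 CPM it was 1.44, 4.30, 16.3 and 19.3 with neither addition, oligos, formaldehyde and both. The same proportional deviation gives a larger index where more counts are expected, on average 19.5 at 100 to 300 CPM and 243 over 1000 CPM. The index therefore compares libraries within a class and not classes with each other. The class over 1000 CPM also holds globin and mitochondrially encoded mRNAs, and shifts of such groups enter the index.

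How far the libraries lost the same transcripts went with expression level. At full depth 4141 transcripts had a count in all 3 libraries with additions, 2278 in 2 of them, 2356 in 1 and 10703 in none. Of those seen in none, 2187 had a count with Ribo-Zero Plus alone, and 112 of those seen in at least 1 were in neither that library nor the undepleted ones. At 30 to 100 CPM 366 transcripts were missing with oligos, 710 with formaldehyde and 479 with both, and 33 were missing from all 3. The 33 are 9.02% of the oligo dropouts and 4.65% of the formaldehyde dropouts. Losing transcripts independently, at each library's own rate for the expression level, would leave 25.9. By pairs, 31.7% of the oligo dropouts were also missing with formaldehyde and 22.1% with both, and 32.4% of the dropouts with both were missing with formaldehyde. At 10 to 30 CPM these shares were 60.1%, 53.5% and 60.6%, or 759, 676 and 832 transcripts, where independent loss would give 739, 640 and 796. In that class 432 transcripts were missing from all 3, against 385 by the same reckoning.

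POP4, a protein subunit of ribonucleases P and MRP, was the most highly expressed transcript absent from all 3. It had 73 and 68 counts undepleted (65.1 ± 1.14 CPM, SD, n = 2), 121 counts with Ribo-Zero Plus alone (65.8 CPM) and 0 in each of the others, where 3 counts would be 16.2, 25.7 and 18.2 CPM with oligos, formaldehyde and both. If only counting varied, a limit of 3 counts would put POP4 at least 4.05-fold lower with oligos than with neither. With formaldehyde and with both the values would be 2.56-fold and 3.62-fold. These are not firm bounds, because the scatter index at 30 to 100 CPM was 4.06, 5.49 and 4.5 in the 3 libraries. POP4 was also picked for its 0 counts. MRRF, the mitochondrial ribosome recycling factor, had 104 counts with Ribo-Zero Plus alone and 0 in the other 3. TMEM256 with 91 counts, SPDYC, a Speedy-family cell cycle gene, with 73, and DCTN6, a dynactin subunit, with 61 were likewise at 0 in all 3. At the plain library's level these 5 would have had 3.87 to 12.1 counts in the libraries where they were missing.

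Dropout was also read against base composition and length, without a test. The 2930 transcripts at 30 to 100 CPM with a coding sequence in GENCODE release 29 were divided into 4 equal parts by each property. Across the parts by GC content, from 32.57% to 78.43%, dropout ranged from 14.0% to 15.2% with oligos, 21.3% to 25.1% with formaldehyde and 17.6% to 18.3% with both. Across those by coding length, from 111 to 16610 nt, it ranged from 14.3% to 14.6%, 21.9% to 25.1% and 16.1% to 19.4%. From the shortest to the longest part it was 16.1%, 16.9%, 19.1% and 19.4% with both additions, 14.3%, 14.4%, 14.5% and 14.6% with oligos, and 23.1%, 25.1%, 21.9% and 24.0% with formaldehyde. The values within a library stayed within 4 percentage points of each other, against the gap of over 12 to plain Ribo-Zero Plus.

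Which functional classes remained visible followed their expression. All 47 large-subunit and 32 small-subunit ribosomal protein mRNAs in the table, 32 proteasome subunits, 8 subunits of the CCT chaperonin, 15 heat-shock chaperones, 22 aminoacyl-tRNA synthetases and 13 mitochondrially encoded mRNAs had counts in all 3 libraries with additions. The medians of these lists lay between 298 and 1520 CPM undepleted. Nuclear subunits of respiratory complex I kept 36 of 37 members in all 3 libraries, those of complexes III to V 36 of 37, initiation factors 35 of 37 and glycolytic enzymes 16 of 16. The members missing from a library were sometimes well expressed. UQCR10, a complex III subunit, had 268 counts with Ribo-Zero Plus alone and 0 with oligos, where 26.9 would match the plain level. It had 9 with formaldehyde and 10 with both, and its levels were 146, 0, 77.1 and 60.5 CPM. EIF2B5, a subunit of the exchange factor for eIF2, had 250 counts with neither addition, 2 with oligos, 0 with formaldehyde and 17 with both. Its levels were 136, 10.8, 0 and 103 CPM. Both genes thus returned in another library of the set.

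Lists of lower expression lost members in all 3 libraries with additions. ZNF zinc-finger genes, mostly transcription factors, had a median of 4.23 CPM undepleted, and at the common total 204 of 510 were detected with Ribo-Zero Plus alone, 130 with oligos, 108 with formaldehyde and 115 with both. The rates of all transcripts of the same levels would give 209, 130, 105 and 124. The class as a whole kept its share of counts, 0.500%, 0.534%, 0.538% and 0.498%. SLC transporters went from 131 of 364 detected to 92.8, 89 and 85.6, where level rates give 98.0, 85.6 and 94.4 for the 3 libraries with additions. A fractional number is the expected count over all possible draws. Of 78 mitochondrial ribosomal protein mRNAs, 77.5 were detected with Ribo-Zero Plus alone, 73.3 with oligos, 66 with formaldehyde and 72.7 with both, where level rates give 77.3, 71.9, 68.1 and 70.8. MRPL38 of that list had 209, 5, 0 and 15 counts in the 4 libraries, or 114, 27.1, 0 and 90.8 CPM. In these 3 lists the detected members differed from the level rates by fewer than 10 in each library.

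Some haem synthesis enzymes and some erythroid genes had no count in a library with additions. Of 9 haem synthesis enzymes, 8.24 were detected at the common total with Ribo-Zero Plus alone, 5 with oligos, 6 with formaldehyde and 6.97 with both. Level rates give 8.03, 6.53, 5.91 and 6.55, and of all transcripts 42.9%, 33.9%, 30.3% and 32.9% were detected. At full depth 4 of the enzymes had counts in all 3 libraries with additions. ALAS1, which makes the first haem precursor, had 58 counts with neither addition, 0 with oligos, 4 with formaldehyde and 3 with both. Its levels were 31.5, 0, 34.3 and 18.2 CPM. UROD, the most expressed of them, had 903, 73, 46 and 79 counts, or 491, 395, 394 and 478 CPM. The transcription factor KLF1, an activator of erythroid genes, had 108, 6, 0 and 7 counts, or 58.7, 32.5, 0 and 42.4 CPM. GATA1, the factor that defines the lineage, was seen in all 4 at 360, 368, 437 and 303 CPM, against 409 CPM in each undepleted library. TFRC, the transferrin receptor that imports iron, had 1300, 1520, 1660 and 1190 CPM.

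**Figure D4:**
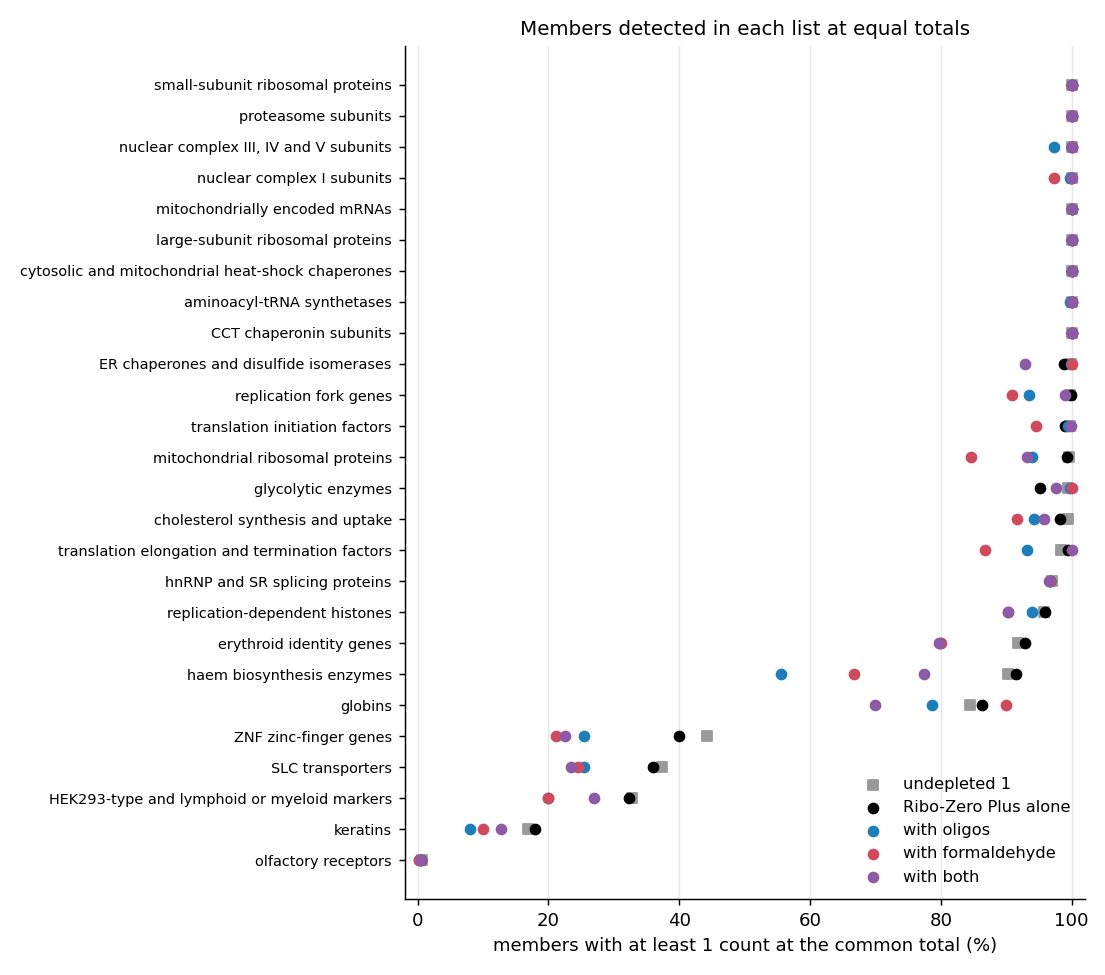
Percent of the members of each of 26 gene lists (rows) with at least 1 count when a library is brought to 116742 counts, for the first undepleted library (squares) and the 4 Ribo-Zero Plus libraries (circles). Lists at the top, such as both ribosomal protein lists and the CCT chaperonin, stayed at 100% in all libraries, while the ZNF genes went from 204 of 510 members with neither addition to 130, 108 and 115.

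Levels of well-expressed transcripts also diverged. Among 1979 transcripts of at least 100 CPM undepleted, 371 differed at least 2-fold between oligos and neither addition at the common total (18.7%), 119 higher and 252 lower. With formaldehyde 489 did (24.7%), 138 higher and 351 lower, and with both 445 did (22.5%), 132 higher and 313 lower. Replicate pairs of the table at the same total differed this much at 5.0% (undepleted), 3.99% (FastSelect), 3.54% (riboPools) and 4.5% (riboPools, eluted cold) of these transcripts, and plain Ribo-Zero Plus against each undepleted library gave 6.32% and 6.01%. The libraries with additions differed from each other even more often, by 31.3% between oligos and formaldehyde, 29.3% between oligos and both, and 32.8% between formaldehyde and both. The excess of lower over higher depends on scaling: with TMM factors the splits were 70 higher and 318 lower, 58 and 473, and 85 and 387. Only 20, 56 and 47 of 621 transcripts of at least 300 CPM passed (3.22%, 9.02% and 7.57%).

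The transcripts that moved alike in all 3 libraries were taken by size and are a description. MRPL28, a mitochondrial ribosomal protein, had 184 CPM with Ribo-Zero Plus alone, then 48.7, 85.7 and 54.5 CPM with oligos, formaldehyde and both. NDUFB11, a complex I subunit, had 211, 97.4, 85.7 and 30.3 CPM. MAZ, a zinc-finger transcription factor, had 274, 6, 0 and 8 counts, MCMBP, which binds the MCM helicase, 254, 8, 0 and 10, and PTDSS1, a phosphatidylserine synthase, 168, 1, 4 and 0. In the other direction ZNF622 had 76.6 CPM with neither addition and 244, 326 and 242 CPM in the others. SLC39A7, a zinc transporter, had 116, 238, 291 and 260 CPM, and CUL4A, a ubiquitin ligase scaffold, 107, 195, 274 and 260. KCNH8 had 28.2 and 43.6 CPM in the undepleted libraries and was already at 2110 CPM with Ribo-Zero Plus alone. It also led the class of 30 to 100 CPM in both FastSelect libraries, with 51 and 57 counts at the common total. The highest count of any transcript of that class was 24 and 23 in the undepleted libraries. With oligos, formaldehyde and both it had 16000, 13500 and 13400 CPM. These levels come from 3889, 2960, 1574 and 2211 counts in the 4 libraries, and KCNH8 alone provided 1836, 1574 and 1556 of the 116742 counts in the 3 libraries with additions.

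Globin mRNAs, which code for the chains of haemoglobin, took a smaller share of counts in the libraries with formaldehyde. All globins together held 1.28% of counts with Ribo-Zero Plus alone and 1.34% and 1.30% undepleted. Their share was 1.06% with oligos, 0.650% with formaldehyde and 0.351% with both. The fetal gamma-globin HBG2 was at 3890 CPM with neither addition, 3090 with oligos, 1780 with formaldehyde and 969 with both, against 4030 ± 157 CPM undepleted (SD, n = 2). HBG1, a near-identical copy, followed at 3920, 3260, 1940 and 1120 CPM. The alpha-globin HBA2 went from 1150 CPM to 920, 523 and 109 and its copy HBA1 from 1180 to 937, 488 and 206. The sum of each pair is safer than its members, since reads of near-identical copies can be split between them by the counting. The embryonic globins HBE1 (1800, 1680, 942 and 702 CPM) and HBZ (818, 639, 668 and 315 CPM) were lowest with both additions. Not all globins of low expression fell. HBB was higher with formaldehyde, at 20, 0, 7 and 14 counts, or 10.9, 0, 60.0 and 84.8 CPM. HBD had 39, 2, 8 and 0 counts, or 21.2, 10.8, 68.5 and 0 CPM. HBQ1 had 61, 7, 3 and 0 counts, or 33.1, 37.9, 25.7 and 0 CPM. By these CPM values 0 of the 6 globins over 100 CPM were past 2-fold lower with oligos, 4 with formaldehyde and 6 with both. In the random draw to the common total, with its added sampling noise, the counts were 0, 5 and 6, where 12.7%, 17.7% and 15.8% of all 1979 transcripts were past 2-fold lower. With 1 library per condition, a lower globin level in the cells and loss of globin footprints during library preparation cannot be told apart. Bulk libraries also cannot separate fewer cells with an mRNA from less of it per cell.

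Mitochondrially encoded mRNAs, which code for core subunits of the respiratory chain and are translated by mitochondrial ribosomes, went the other way. They held 1.87% and 1.91% of counts undepleted, 2.42% with Ribo-Zero Plus alone, 2.45% with oligos, 3.95% with formaldehyde and 4.21% with both. MT-CYB, the cytochrome b of complex III, was at 1980 CPM with neither addition, 1460 with oligos, 5550 with formaldehyde and 5030 with both. MT-CO1, the catalytic subunit of complex IV, had 4220, 4720, 7150 and 6560 CPM, and MT-CO2 had 2550, 2860, 4160 and 5240. In both libraries with formaldehyde MT-CYB, MT-CO1, MT-CO2, MT-CO3, MT-ND1, MT-ND2, MT-ND4, MT-ND5, MT-ND6, MT-ATP6 and MT-ATP8 stood above both libraries without it. MT-ATP8 did so only narrowly, at 1310, 1260, 1380 and 1720 CPM, where 1380 CPM is 161 counts. The 2 remaining mRNAs overlapped: MT-ND3 had 830, 850, 1280 and 793 CPM and MT-ND4L 623, 742, 625 and 1690. The share of all transcripts separated in this way was not counted, so the separation is only a description. By CPM 0 of 13 were past 2-fold higher with oligos, 2 with formaldehyde and 3 with both. In the random draw the counts were 0, 2 and 4, against 6.01%, 6.97% and 6.67% of all 1979 transcripts. Cytosolic ribosomal proteins changed little as classes, at 7.71%, 7.67%, 7.29% and 7.19% of counts for the large subunit and 5.08%, 5.06%, 5.0% and 4.91% for the small one.

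**Figure D5:**
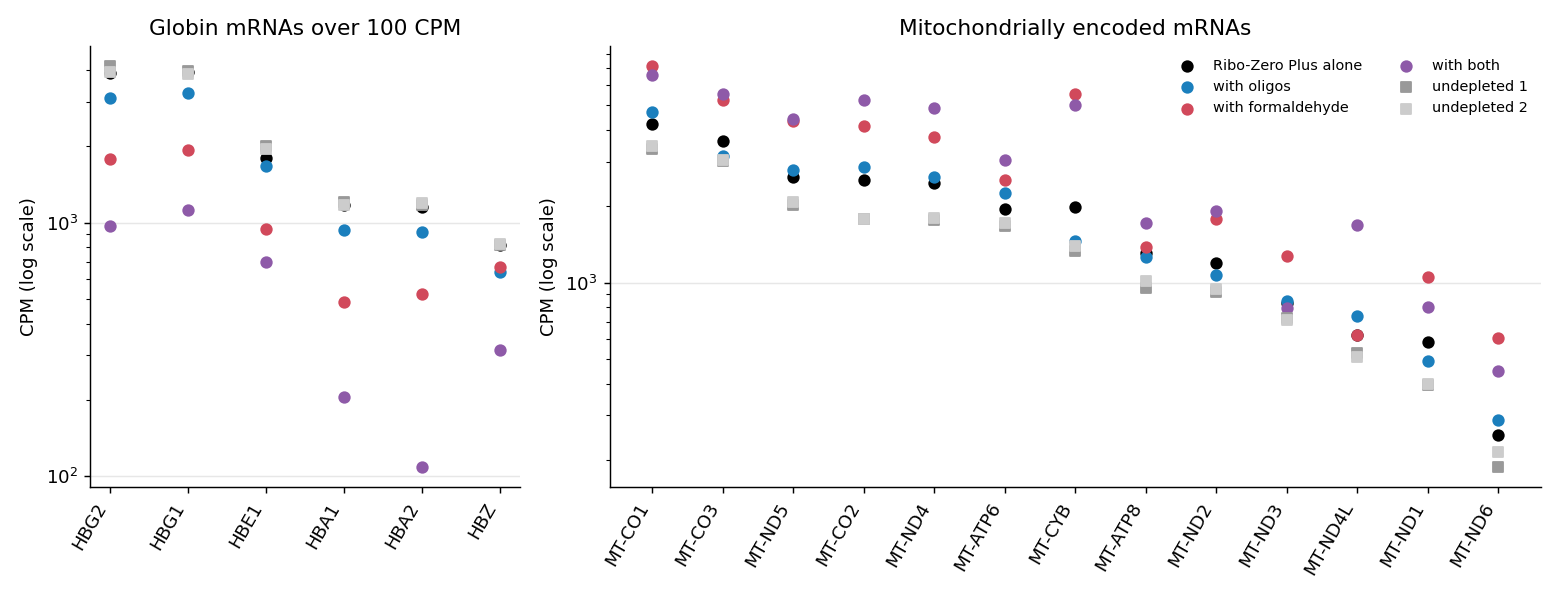
Level in CPM (log scale) of the 6 globin mRNAs over 100 CPM (left) and the 13 mitochondrially encoded mRNAs (right) in the 4 Ribo-Zero Plus libraries (circles) and the undepleted pair (squares), 1 point per library. HBG2 was at 1780 and 969 CPM in the libraries with formaldehyde against 3890 and 3090 without it, and MT-CYB at 5550 and 5030 against 1980 and 1460.

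This contrast was noticed in the fold changes, and a model was then fitted to the same 4 libraries, so its p-values are not independent evidence. edgeR's quasi-likelihood test with additive terms for oligos and formaldehyde, Benjamini-Hochberg adjusted over 3616 transcripts, called 15 for formaldehyde (0.415%), 9 higher (0.249%) and 6 lower (0.166%), and 1 for oligos (0.0277%). Without adjustment, 162 and 88 transcripts had p under 0.05. Additive terms take the formaldehyde change to be the same with and without oligos. For HBA2 it was not: 1150 to 523 CPM without oligos and 920 to 109 CPM with them. The HBA2 value below thus averages unlike changes. MT-CYB changed more alike, from 1980 to 5550 CPM without oligos and from 1460 to 5030 CPM with them. MT-CYB rose by 1.62 ± 0.178 (log2, SE; adjusted p 3.67e-08). Of the globins 5 fell: HBG2 by -1.40 ± 0.200 (adjusted p 1.85e-05), HBG1 by -1.28 ± 0.195 (6.01e-05), HBA2 by -1.99 ± 0.368 (0.00219), HBA1 by -1.71 ± 0.329 (0.00302) and HBE1 by -1.10 ± 0.245 (0.0197). HBZ, at -0.65 ± 0.338, was not called (adjusted p 1.0). HBB, whose change was upward at 3.8 ± 3.63, was not called either. MT-CO1, MT-CO2, MT-CO3 and MT-ND4 rose by 0.61 to 0.78, with edgeR adjusted p from 0.016 to 0.0467, and the 8 remaining mitochondrial mRNAs were not called.

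The other calls had no theme among the lists. RPL38, a large-subunit ribosomal protein, had 956 and 893 CPM without formaldehyde and 214 and 333 with it. RPS27, a small-subunit protein, had 1050 and 920 without and 1890 and 1960 with it. GTF2H4, a subunit of the repair and transcription factor TFIIH, had 116 and 103 CPM without and 437 and 575 with it. Its undepleted level was 46.9 ± 9.04 CPM (SD, n = 2), so it was already higher in the Ribo-Zero Plus libraries without formaldehyde. RPL38 and RPS27 were at 891 and 986 CPM undepleted. KCNH8 was called for both terms.

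These calls rest on 1 residual degree of freedom and on the settings. Among 5 alternatives on the 4 libraries the formaldehyde count was 0 with that term alone, 1 with DESeq2 size factors in edgeR, 3 with total counts, 11 without a filter and 20 with DESeq2. MT-CYB was called in 4 of the 5, HBG1 and HBG2 in 3, HBA1, HBA2 and HBE1 in 2, and MT-CO1, MT-CO2, MT-CO3 and MT-ND4 in 1. RPL38 and GTF2H4 were called in 2 of the 5, RPS27 in 1 and KCNH8 in 1 for each term. Their directions were the same in all 5. With all 12 libraries of the table in the fit 997 of 9628 transcripts were called for formaldehyde. That fit differs in the libraries that set the spread and in the transcripts tested, and which of these moved the count was not tested. Both libraries with formaldehyde also had the lowest 2 totals of the 4, 116742 and 165153 counts, and what part this had in the result was not tested.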

How the data were processed

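The authors deposited counts of ribosome footprints per coding sequence, 1 transcript per row with a gene name. CASAVA 1.8, STAR and the builds GRCh38 and hg38 appear in the submitters' processing notes, with no roles. Filters and the treatment of PCR copies are not given in the sources used here. The deposited RPM tables were not used. The deposited counts were used as they stand, for 12 K562 libraries. Totals are given in the report, and 3 counts were taken as the limit of detection for a 0; intervals and limits cover counting error only. Expected detection at 116742 counts was computed exactly (hypergeometric); counts of single transcripts came from 1 random draw (seed 1), with 19 others as a check. Python 3.11.15, scipy 1.17.1, edgeR 4.0.16 and DESeq2 1.42.0 (R 4.3.3) were used, with TMM factors and filterByExpr for edgeR. Rarefaction and the edgeR fit were tested on simulated data. Coding sequences came from GENCODE release 29 and matched 18948 of 19478 transcripts.

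The comparison, its members and the 26 gene lists were chosen with earlier results of these data known. Named transcripts are the 5 with most counts per Ribo-Zero Plus library, the 5 most expressed at 0 in all 3 libraries with additions, the 5 with the largest concordant ratios each way (at least 30 counts in each of the 3 and 4 in plain Ribo-Zero Plus for the higher ones, at least 100 CPM undepleted for the lower), and in each list the most expressed member and the most expressed with a 0; globins, mitochondrial mRNAs and edgeR calls were added after their values were seen. Some transcripts these rules name are not reported here. Counts of the undepleted replicates differed slightly more than by sampling (chi-square per degree of freedom 1.051), and they were kept as 2 samples. The labels do not say whether these came from separate cultures, so their spread may be technical.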

Additional observations from a re-analysis of the deposited data

Results flagged for a closer look

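Oligos went with opposite changes depending on formaldehyde. Transcripts detected at 116742 counts fell by 1750 with oligos in the absence of formaldehyde (8362 to 6612) and were higher by 500 in its presence (5905 to 6405). The inverse Simpson index fell by 111 without formaldehyde (833 to 721) and was higher by 18.5 with it (654 to 673). The share of transcripts at 30 to 100 CPM with 0 counts was higher by 13 percentage points without formaldehyde (1.41% to 14.4%) and fell by 5.97 with it (23.6% to 17.7%). Each change compares 1 library with 1, so these differences were not tested.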

How the results depend on the processing

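The order of the 4 Ribo-Zero Plus libraries in transcripts detected at equal totals was kept at 50000 counts, with at least 2 counts required, and without the leading or the 10 leading transcripts. Read at 50000 counts, the equivalent depth was 61.1% with oligos, 48.4% with formaldehyde and 56.8% with both. With the undepleted libraries as reference it was 24.9% with oligos and 24.6% with both. The exponential of the Shannon entropy, another measure of evenness, was 2623, 2335, 2138 and 2217 with neither addition, oligos, formaldehyde and both. In that order, dropout at 30 to 100 CPM was 10.6%, 23.9%, 30.8% and 26.6% at 50000 counts, and 6.02%, 20.9%, 28.9% and 24.3% with at least 2 counts required. Detected ZNF genes were 25.7%, 20.0%, 17.6% and 17.2% at 50000 counts, and 23.7%, 20.8%, 18.0% and 16.9% at 2 or more counts, so the libraries with formaldehyde and with both changed places against 21.2% and 22.6% at 1 or more. Transcripts past 2-fold numbered 2077, 2351 and 2196 of 4984 with oligos, formaldehyde and both when a level of 30 CPM sufficed (41.7%, 47.2% and 44.1%), and 20, 56 and 47 of 621 from 300 CPM (3.22%, 9.02% and 7.57%). Without the leading transcript, shares of counts with Ribo-Zero Plus alone were 1.30% for globins, 2.47% for mitochondrial mRNAs, 7.85% for large-subunit and 5.18% for small-subunit ribosomal proteins, and large-subunit shares were 7.79% with oligos and 7.32% with both. The added edgeR model called 1 transcript for formaldehyde with DESeq2 size factors, 3 with total counts, 0 with that term alone and 997 with all 12 libraries. For oligos it called 0, 0, 0 and 918, and DESeq2 called 0. Leaving out each Ribo-Zero Plus or undepleted library in turn from the 12-library fit gave 646 to 2967 calls for formaldehyde and 631 to 3155 for oligos. In those fits the formaldehyde log2 change of KCNH8 ran from -0.281 to 2.42, with -0.275 without the plain library and -0.281 without the formaldehyde library. The cause of these shifts was not tested. No paired analysis was possible because each Ribo-Zero Plus condition is 1 library with no replicate number. By counting error alone, the limit of 3 counts is 16.2 to 25.7 CPM in the 3 libraries with additions. A 0 at lower levels was therefore not detectable as a loss.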
